A study of Sus scrofa with 21 samples.

Results

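The infarct core (IC) of the pig heart 1 week after myocardial infarction was compared with control myocardium (CM). The 3 IC arrays of that stage and the 3 CM arrays were chosen by their labels, 6 of the 21 arrays of the series, and each array held the RNA of 1 animal. All animals were female Landrace x Large White crosses. Pigs 7, 8 and 9 (IC_1w) carried a surgically made infarct, for which a marginal branch of the circumflex artery was tied off for good, and were sampled at day 6 by their labels, in the stage called 1 week; the tissue came from the middle of the left ventricular scar. Remote myocardium (RM_1w) was the septum of the same 3 pigs, outside the infarct. Infarct cores of the later scar came from pigs 18, 20 and 22 at day 30 (IC_4w) and from pigs 2, 3 and 5 at day 45 (IC_6w). The controls were pigs 30, 31 and 33, labelled as sham operated at time 0 and called healthy in the study's methods; where in the heart their tissue was taken is not given in the sources used here.

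An infarct is muscle that died when its artery closed. Over the following days the dead cardiomyocytes are cleared by macrophages and other leukocytes, fibroblasts multiply and lay down extracellular matrix, and some of them take on contractile proteins of smooth muscle and are then called myofibroblasts. The matrix is later crosslinked into a scar with few cells. Whole tissue was measured here, so fewer cells of a type and less RNA per cell cannot be told apart.

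Each probe set of the Porcine Genome Array had 1 value an array on the log2 scale, on which 1 unit stands for a factor of 2. Of the 24123 probe sets, 12180 lay above 3 in at least 10 of the 21 arrays and were tested with limma, and a probe set was called where its p adjusted by the Benjamini-Hochberg method was under 0.05. IC_1w differed from CM in 6598 probe sets, 54.2% of those tested, of which 3163 were higher (26%) and 3435 lower (28.2%) in IC_1w. The log2 FC of called probe sets spanned -4.49 to 7.49. Rises were the larger changes, with 538 probe sets at 2 or more against 212 at -2 or less, and 181 at 3 or more against 32 at -3 or less. The 3 IC_1w arrays resembled each other (Pearson r across all tested probe sets 0.972 to 0.981) as much as the CM arrays did (0.968 to 0.982), and IC_1w with CM gave 0.806 to 0.844; these r describe arrays, not replicates of genes. Since most genes changed, a gene list was read against the share over all 4977 genes tested, where 56.6% were called, 27.4% higher and 29.2% lower, with a median log2 FC of -0.05. The IC_1w and CM arrays did not overlap for 64.2% of the tested probe sets, with IC_1w above CM in 30.2% and below it in 33.9%.

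Among the tested probe sets, the largest rises joined a macrophage enzyme, antibody chains and secreted proteins of the scar. LYZ, the bacteria-digesting lysozyme, read 10.93, 11.07 and 10.70 in the infarct cores of pigs 7, 8 and 9, against 3.68, 2.62 and 3.92 in the CM of pigs 30, 31 and 33 (log2 FC 7.49, SE 0.83, adjusted p = 8.25e-07). Every core stood far above every control for this gene. Immunoglobulin transcripts were as high but uneven. LOC396781, whose RefSeq synonym is IGHG, an antibody heavy chain, read 11.11, 7.18 and 12.63 in IC_1w, against 3.95, 2.37 and 4.71 in CM (log2 FC 6.62, SE 1.43, adjusted p = 0.000819). LOC100152327, described by the authors as an immunoglobulin lambda constant region, gave 10.84, 8.46 and 12.79 in IC_1w, against 4.26, 3.81 and 4.51 in CM. JCHAIN, the chain that joins antibody molecules, read 8.25, 6.47 and 9.86 in IC_1w, against 3.57, 3.95 and 3.91 in CM (log2 FC 4.38, SE 0.77, adjusted p = 0.000113). In all 3 of these antibody probe sets pig 8 was the lowest core and pig 9 the highest. For LYZ, the same pigs differed by less than the cores and the controls did by a wide margin.

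Secreted proteins made up most of the other top rises. SFRP1, a secreted binder of Wnt ligands, read 10.18, 10.47 and 9.85 in IC_1w, against 4.15, 3.01 and 4.31 in CM (log2 FC 6.34), and its second probe set gave 6.03. SPP1 (osteopontin, made by macrophages and matrix-forming cells) rose by 6.09, C1QTNF3 by 6.09, and PTN, the growth factor pleiotrophin, by 6.06. The collagen-binding proteoglycan FMOD rose by 5.86, CILP, a matrix protein of cartilage and fibrous tissue, by 5.74, LRRC17 by 5.59, the chemokine CXCL14 by 5.42, THBS2, a matricellular thrombospondin, by 5.15 and COL12A1, a collagen that decorates fibrils, by 5.13. NPPB, the natriuretic peptide of the stretched ventricle, rose by 6.17 (SE 1.57, adjusted p = 0.00293), and the probe set matched to CCBL2 by 5.88. FMOD, LRRC17, COL12A1, CCBL2 and LYZ carry names from the authors' match to human genes, which differed from the platform symbol in 255 of the 1350 tested probe sets with both names. All 15 of the largest rises had IC_1w arrays above all CM arrays, which their choice required.

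The largest falls held enzymes, transporters and muscle proteins of several kinds. ASB11, a muscle subunit of ubiquitin ligases, read 4.97, 5.38 and 6.08 in IC_1w, against 9.40, 9.65 and 9.32 in CM (log2 FC -3.98, SE 0.30, adjusted p = 1.64e-08). ADHFE1, a mitochondrial oxidoreductase, fell by 3.63 and SLC41A1, a magnesium transporter, by 3.71. The metal-binding protein MT3 fell by 3.70, the peptidase DPP4 by 3.78 and the probe set matched to DDIT4L by 3.83. ABRA, an actin-binding activator of the serum response pathway in striated muscle, fell by 3.53, MYOM2, an M-band protein of the sarcomere, by 3.24, RETREG1, a receptor for autophagy of the endoplasmic reticulum, by 3.27, and FBXO32 (atrogin-1), a ubiquitin ligase of muscle atrophy, by 3.19. The other places among the 15 went to probe sets matched to FNBP1 (fell by 3.61), MAP3K14 (fell by 3.17) and CPN1 (fell by 3.17).

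PDK4 and STC1, the first and second in size among the falls, were low in the remote septum too. PDK4, the kinase that closes pyruvate dehydrogenase when fat is burned, read 6.65, 4.50 and 5.02 in IC_1w and 6.06, 5.72 and 5.70 in RM_1w, against 9.80, 9.85 and 9.98 in CM. Its log2 FC was -4.49 in IC_1w against CM (SE 1.30, adjusted p = 0.00729) and -0.44 in IC_1w against RM_1w of the same pigs (adjusted p = 0.35). STC1, a secreted glycoprotein hormone, read 3.70, 3.64 and 3.04 in IC_1w and 4.62, 4.65 and 4.56 in RM_1w, against 7.76, 7.76 and 7.31 in CM; it was also lower in IC_1w than in RM_1w (log2 FC -1.15, adjusted p = 0.011). By these array values the 3 infarcted pigs of the 1-week stage lay apart from the controls at both genes in both places sampled. PDK4 varied widely in the later scar, between 2.88 and 8.93 in IC_6w. In the remote septum it read 8.49 to 9.08 at 4 weeks and 3.79 to 9.98 at 6 weeks, the last reaching the CM level. A second PDK4 probe set gave a log2 FC of -3.47, which was -3.06 with an adjusted p of 0.0611 once pig 8 of IC_1w was left out. In RM_1w against CM this second probe set was not called (log2 FC -3.33).

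Lists of 44 pathways, complexes and cell types were then followed, with 1 probe set a gene. The plot of 24 of these lists shows each member by its log2 FC.

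**Figure D1:**
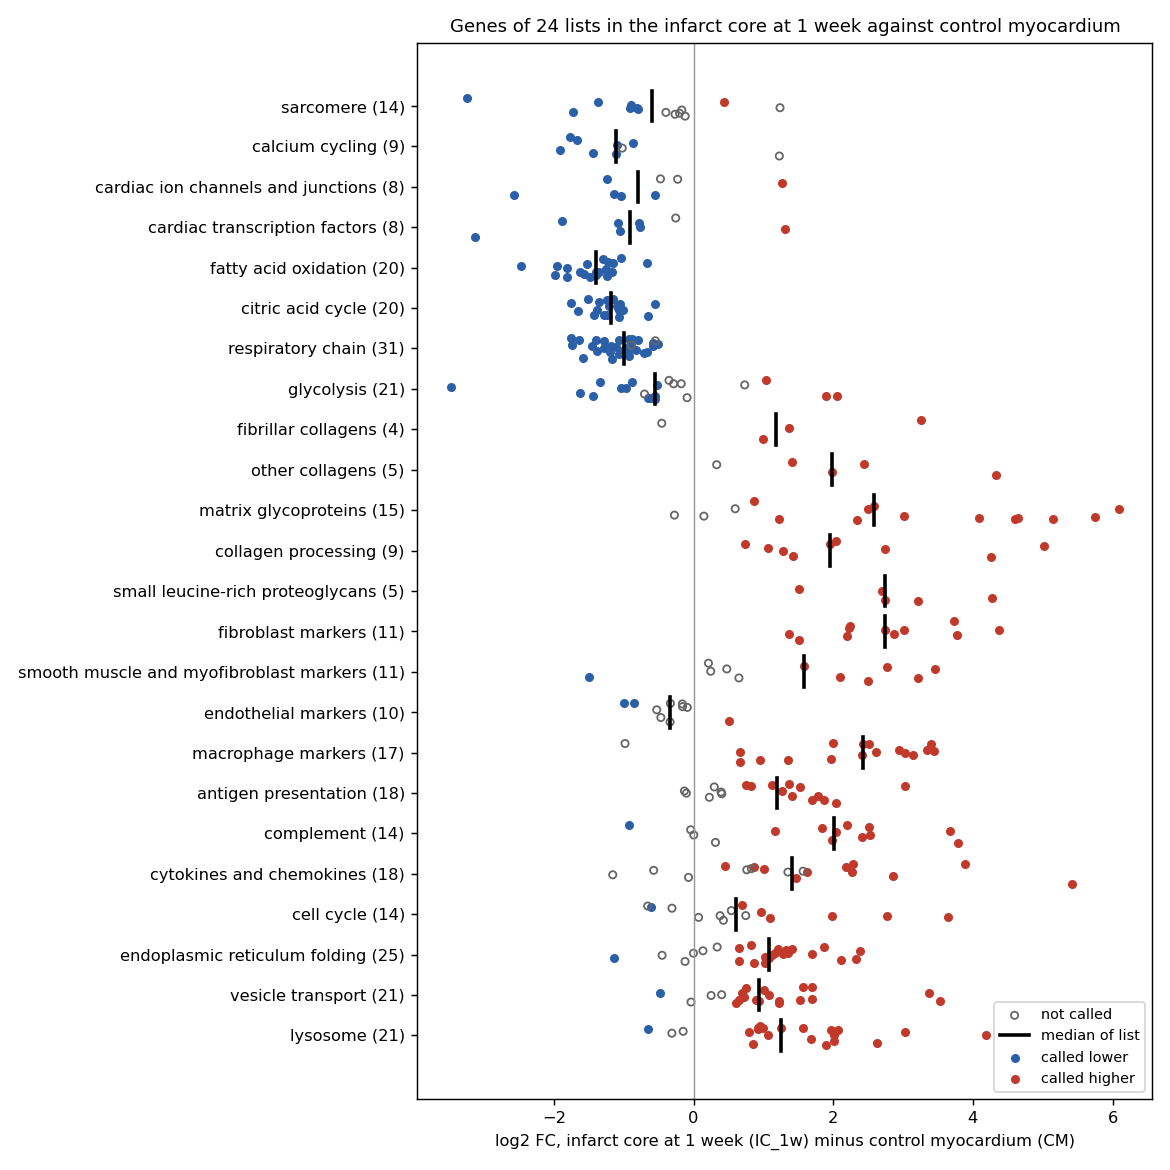
Each point is a gene of a list (number of genes tested in brackets), placed by its log2 FC of IC_1w over CM (3 arrays a group); red points were called higher, blue points called lower and open points not called, and black bars are list medians. All points of fatty acid oxidation and of the citric acid cycle lie left of 0, and all of collagen processing, the small leucine-rich proteoglycans and the fibroblast markers lie right of it.

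Most genes of oxidative metabolism were lower. The adult cardiomyocyte makes most of its ATP in mitochondria, from fatty acids fed through beta oxidation and the citric acid cycle to the respiratory chain. All 20 tested genes of fatty acid oxidation were called lower (median log2 FC -1.40), with IC_1w below CM on every array. CPT1B, which commits long-chain fatty acids to the mitochondrion, read 7.02, 6.14 and 6.48 in IC_1w, against 9.26, 9.10 and 8.66 in CM (log2 FC -2.46, SE 0.36, adjusted p = 1.84e-05). ACAA2, the last enzyme of the beta oxidation cycle, fell by 1.98, ACSL1, which activates fatty acids, by 1.96, ACADVL and ACADS, which take the very long and the short chains, by 1.82 and 1.63, and LPL, which frees fatty acids from blood lipoproteins, by 1.82. The smallest fall was that of ACADM at 0.67.

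The citric acid cycle, with the pyruvate dehydrogenase complex that feeds it, gave the same count: 20 of 20 genes were called lower (median -1.18). SDHB, the iron-sulphur subunit of succinate dehydrogenase, read 8.97, 8.63 and 9.02 in IC_1w, against 10.49, 10.69 and 10.71 in CM (log2 FC -1.76, SE 0.14, adjusted p = 3.69e-08), while a second SDHB probe set was not called (log2 FC 0.10, adjusted p = 0.574). PDHA1 fell by 1.65, SUCLA2 by 1.51, SDHA by 1.42 and IDH3G by 1.39, and the range ended at IDH3B with 0.56. In the respiratory chain 29 of 31 genes were called lower (median -0.99). NDUFV1, a core subunit of complex I, read 7.46, 7.41 and 7.48 in IC_1w, against 9.24, 9.18 and 9.16 in CM (log2 FC -1.74, SE 0.14). Its complex I partners NDUFA9, NDUFV2 and NDUFS1 fell by 1.76, 1.59 and 1.45, COX7A1, the muscle form of a complex IV subunit, by 1.64 and ATP5J of the ATP synthase by 1.40. CYCS (log2 FC -0.89, adjusted p = 0.0608) and NDUFB5 (-0.55, adjusted p = 0.0899) were the 2 members not called, though their IC_1w arrays also lay below CM.

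Isoforms split apart in the genes that carry and buffer ATP, of which 9 were lower and 3 higher. PRKAA2, the catalytic subunit of AMP-activated kinase found in muscle, fell by 2.17, CKM, the creatine kinase of muscle, by 1.48 and CKMT2, its mitochondrial partner, by 1.45. CKB, the creatine kinase of brain and other tissues, rose by 1.02. SLC25A4, the ATP carrier of heart and muscle, fell by 0.95, while its relatives SLC25A5 and SLC25A6 rose by 1.39 and 0.55. VDAC2, a pore of the outer mitochondrial membrane, had a log2 FC of -1.29 at the probe set with the highest mean and 3.56 at another, so no direction was given to it. Glycolysis showed a like division in part: 12 of 21 genes were lower and 3 higher (median -0.56). The falls were not confined to muscle forms. The largest was PDK4 at its second probe set (log2 FC -3.47), a kinase of pyruvate dehydrogenase that this list included, and GAPDH was lower too (log2 FC -0.53). PGAM2, PFKM and PYGM, forms of muscle, fell by 1.63, 1.45 and 1.34, and ENO3, the muscle enolase, by 1.04. ENO1, the enolase of most tissues, read 8.21, 7.97 and 8.53 in IC_1w, against 6.17, 5.90 and 6.50 in CM (log2 FC 2.05, SE 0.21). LDHA, which makes lactate, rose by 1.90 and PFKP, the platelet-type phosphofructokinase, by 1.03.

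Most cardiac transcription regulators were lower as well. PPARGC1A, a coactivator that drives mitochondrial genes, read 4.54, 4.73 and 4.96 in IC_1w, against 8.58, 7.65 and 7.39 in CM (log2 FC -3.13, SE 0.47, adjusted p = 2.59e-05). Of the 8 cardiac transcription factors tested, 6 were lower, among them MYOCD, the coactivator of muscle genes (by 1.88), HAND1 (by 1.08), GATA6 (by 1.05), GATA4 and MEF2A (each by 0.77). HOPX rose by 1.32.

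Contractile genes fell less evenly than metabolic ones. The sarcomere list held 7 genes called lower, 1 higher and 6 not called among 14 (median -0.60). MYOM2 read 7.56, 7.81 and 8.44 in IC_1w, against 11.32, 11.23 and 10.99 in CM. TCAP, which ties titin together at the Z-disc, fell by 1.73, MYOM1 by 1.37, the light chain MYL3 by 0.91, titin (TTN) by 0.90, troponin I (TNNI3) by 0.82 and ACTN2, the Z-disc actinin, by 0.79. The most abundant filament genes, given here after their values were seen, were not called. MYH7, the beta myosin heavy chain, read 12.88, 12.58 and 12.62 in IC_1w, against 12.98, 12.80 and 12.80 in CM (log2 FC -0.17, adjusted p = 0.365). The same held for MYL2 (log2 FC -0.20), TNNT2 (-0.12), TNNC1 (-0.26) and TPM1 (-0.40), and for XIRP2, which lay on the other side (1.24). A second, dimmer TPM1 probe set was higher by 1.91 (adjusted p = 2.92e-07), and a second one of TTN was not called (-0.67). ACTC1, cardiac alpha actin, was higher by 0.43 (11.81, 11.78 and 11.79 in IC_1w, against 11.46, 11.26 and 11.37 in CM). The largest value of any probe set on any array was 13.4, so these genes were read near the top of the scale.

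Calcium handling lost 7 of 9 genes tested, with none higher (median -1.11). RYR2, the channel that releases calcium from the sarcoplasmic reticulum, read 6.81, 5.87 and 6.23 in IC_1w, against 8.04, 8.66 and 7.94 in CM (log2 FC -1.91, SE 0.24, adjusted p = 3.82e-06). SLC8A1, the sodium-calcium exchanger, fell by 1.76, S100A1 by 1.67, HRC by 1.43 and phospholamban (PLN) by 1.11. ATP2A2, the calcium pump, was lower by 0.87 at its brightest probe set and higher by 1.51 and 1.80 at 2 dimmer ones, so its direction depends on the probe set. Among ion channels and junction genes 5 of 8 were lower. KCNIP2, a subunit of the transient outward potassium channel, fell by 2.58, desmoplakin (DSP) by 1.24, KCNE1 by 1.14 and KCNQ1 by 1.04. GJA5, a connexin of atrial and conducting muscle, rose by 1.27, and GJA1, the main connexin of the ventricle, named after its value was seen, was not called (log2 FC -0.23).

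Most matrix genes tested were higher. Of 15 matrix glycoproteins 12 were called higher and none lower (median 2.59). FN1, fibronectin, the first scaffold of a healing wound, read 11.68, 11.41 and 11.61 in IC_1w, against 6.56, 6.70 and 7.51 in CM (log2 FC 4.64, SE 0.24, adjusted p = 3.84e-10). POSTN (periostin), made by activated fibroblasts, read 10.46, 10.90 and 10.44 in IC_1w, against 5.02, 5.56 and 7.43 in CM (log2 FC 4.60, SE 0.44). The 3 cores agreed closely at both genes, and control pig 33 was the highest control at each. THBS2 rose by 5.15 and VCAN, a water-binding proteoglycan, by 4.08. Each of the 9 genes that modify, fold or crosslink collagen was higher (median 1.96). LOXL1, a crosslinking oxidase, read 7.70, 8.78 and 7.90 in IC_1w, against 2.86, 2.21 and 4.27 in CM (log2 FC 5.02, SE 0.51). The collagen chaperones FKBP10 and SERPINH1 rose by 4.26 and 2.04, the oxidase LOX by 2.74, and BMP1, which trims procollagen, by 1.96.

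Collagens themselves were covered thinly: 4 fibrillar chains were tested, of which 3 were higher. COL5A1, which starts fibrils, read 8.39, 8.89 and 8.65 in IC_1w, against 5.12, 5.09 and 5.96 in CM (log2 FC 3.25, SE 0.29). COL5A3 rose by 1.37 and COL1A2 by 0.99. COL3A1 was read at 2.75 to 2.95 in IC_1w and 3.01 to 3.44 in CM, next to the filter level, and was not called. Among other collagens COL8A1 rose by 4.33, COL6A3 by 2.44, COL6A2 by 1.98 and the basement membrane chain COL4A2 by 1.41. All 5 small leucine-rich proteoglycans, which bind collagen fibrils, were higher: BGN by 4.28, PRELP by 3.21, ASPN by 2.74, LUM by 2.71 and DCN by 1.52. Enzymes that cut matrix and their inhibitors rose in 6 of 10 cases. The gelatinase MMP2 read 8.37, 8.51 and 8.88 in IC_1w, against 5.63, 5.06 and 5.53 in CM (log2 FC 3.18, SE 0.24), and its inhibitors TIMP1 and TIMP2 rose by 3.04 and 1.84. FAP, a surface protease of activated fibroblasts, rose by 2.59 and MMP14, which activates MMP2, by 1.32. The broad inhibitor A2M fell by 1.28, and like PDK4 it was low in RM_1w too (4.88 to 5.16, against 6.44 to 6.99 in CM).

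**Figure D2:**
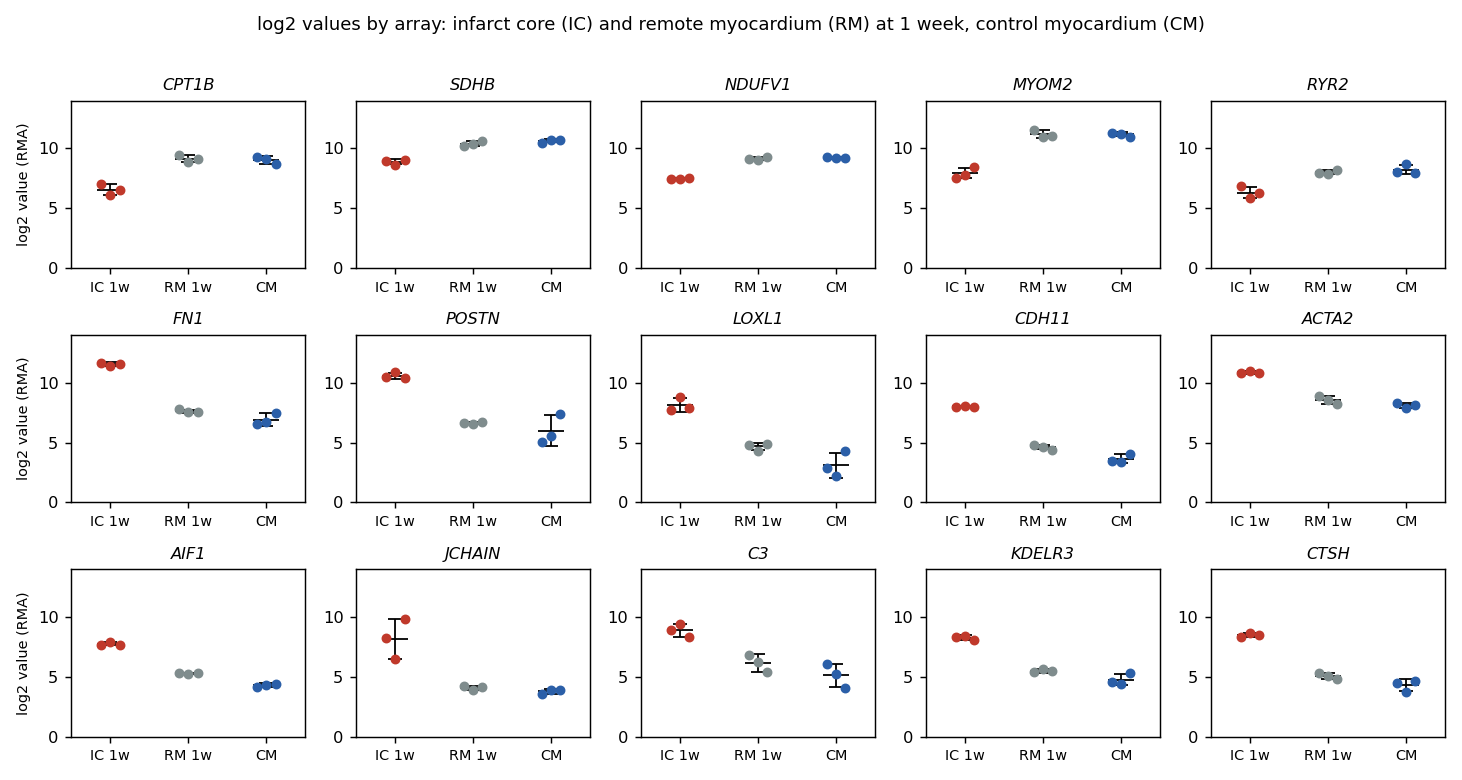
Deposited log2 values (RMA) of 15 genes in IC_1w, RM_1w and CM; points are arrays (3 a group), the long tick is the mean and the bars are ± 1 SD. In each panel IC_1w lies apart from both RM_1w and CM, as for FN1, at 11.41 to 11.68 in IC_1w, 7.54 to 7.78 in RM_1w and 6.56 to 7.51 in CM.

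Markers of cell types were followed next. All 11 fibroblast markers were higher at the probe set used (median 2.74). PDGFRB rose by 1.37 there but was lower by 0.42 at another probe set (adjusted p = 0.0367). CDH11, a cadherin of mesenchymal cells, read 7.98, 8.08 and 8.01 in IC_1w, against 3.48, 3.38 and 4.07 in CM (log2 FC 4.38, SE 0.23, adjusted p = 4.5e-10). The transcription factor PRRX1 rose by 3.78, the surface protein THY1 by 3.73, FBLN1 by 3.01 and S100A4 by 2.88. Of 11 smooth muscle and myofibroblast markers 6 were higher and 1 lower. ACTA2, the actin that defines myofibroblasts, read 10.83, 11.01 and 10.79 in IC_1w, against 8.28, 7.87 and 8.16 in CM (log2 FC 2.77, SE 0.17). TAGLN rose by 3.46, CNN1 by 3.22, ACTG2 by 2.49 and CALD1 by 2.10, whereas smoothelin (SMTN), a protein of contractile smooth muscle, fell by 1.49. The fibroblast and matrix glycoprotein lists, which share FBLN1, stood at list medians of 2.17 to 2.82 and of 2.32 to 2.72 above the CM mean on the 3 IC_1w arrays.

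Few endothelial markers were called. Of 10 tested, 7 were not called, ESAM and CDH5, both of endothelial junctions, were lower (by 0.99 and 0.85) and ENG, a TGF-beta co-receptor, was higher by 0.50 (median -0.33). The calls of CDH5 and ENG were lost when single pigs were left out, CDH5 without any of pigs 30, 31 or 33 of CM or 8 or 9 of IC_1w (adjusted p 0.0558 to 0.115), and ENG without pigs 31 or 33 of CM or 9 of IC_1w (adjusted p 0.067 to 0.0966). VWF, the clotting factor of endothelium, had a log2 FC of -0.33 (adjusted p = 0.427). Of 10 angiogenesis genes 4 were lower and 1 higher. VEGFA, the main endothelial growth factor, read 6.97, 6.91 and 7.08 in IC_1w, against 8.42, 8.70 and 8.47 in CM (log2 FC -1.54, SE 0.17, adjusted p = 1e-06). VEGFB fell by 1.09, NOTCH4 by 1.38 and its ligand DLL4 by 1.00, while THBS1, an inhibitor of angiogenesis, rose by 2.34. Other cells that a biopsy may hold had few tested markers. Keratin KRT8, the only tested gene of the epicardial and mesothelial list, rose by 3.52. Its mean in RM_1w was 4.71, against 1.51 to 2.20 in CM, a difference of 2.91 that was not called. The list's 3 other genes on the array were removed by the filter and were not called without it. Of these, keratins KRT18 and KRT19 had means of 1.88 and 1.26 in IC_1w, against 2.14 and 1.45 in CM. NCAM1, found on nerve and on stressed muscle, rose by 3.31, and S100B of Schwann cells was not called (log2 FC 0.13, adjusted p = 0.679). HBB, the haemoglobin chain of blood, had a log2 FC of -0.27 (adjusted p = 0.17) and MS4A2 of mast cells 0.57 (adjusted p = 0.208). The adipocyte lipase LIPE was lower by 2.23 (without pig 31 of CM the log2 FC was -1.86, adjusted p = 0.0538), with FABP4 and LEP of the same cells not called.

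Macrophage genes were higher in 16 of 17 cases (median 2.42). AIF1, a calcium-binding protein of macrophages, read 7.66, 7.90 and 7.72 in IC_1w, against 4.14, 4.35 and 4.45 in CM (log2 FC 3.45, SE 0.25, adjusted p = 1.24e-08). TYROBP, a signalling adaptor, rose by 3.40, LAPTM5 by 3.34, the antibody receptor FCGR3A by 3.15, cathepsin S (CTSS) by 3.03 and the integrin chain ITGB2 by 2.94. LYVE1, a marker of the macrophages that reside in a healthy heart and of lymph vessels, was the exception, at 2.32, 2.03 and 3.09 in IC_1w, against 3.76, 3.39 and 3.23 in CM (log2 FC -0.98, adjusted p = 0.0613). Of 21 lysosomal genes 18 were higher (median 1.25), and CTSH, a cathepsin, read 8.34, 8.66 and 8.51 in IC_1w, against 4.49, 3.75 and 4.70 in CM (log2 FC 4.19, SE 0.29). LIPA, the lipase of the lysosome, rose by 2.62 and NPC2, its cholesterol carrier, by 2.06, with a second NPC2 probe set not called (log2 FC 0.06). ATP6V0D1, a subunit of the lysosomal proton pump, was lower by 0.66 at the probe set used and higher by 1.01 at another.

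Complement genes rose in 10 of 14 cases (median 2.01). C3, the hub of the cascade, read 8.97, 9.44 and 8.36 in IC_1w, against 6.07, 5.24 and 4.09 in CM (log2 FC 3.79, SE 0.47). C4A rose by 3.67, the brake CD55 by 2.53, C1QC and C1QA, chains of the initiator C1q, by 2.51 and 2.41, and C1S by 2.20. C8G of the terminal complex fell by 0.93, at 2.14 to 2.54 in IC_1w and 3.13 to 3.32 in CM. Of 18 antigen presentation genes 12 were higher and none lower at the probe set used. B2M rose by 0.75 there but was lower by 2.82 at another probe set, and its further probe sets were called in both directions. The class II genes SLA-DQB1, SLA-DMB, SLA-DRB1 and SLA-DQA1 rose by 2.04, 1.78, 1.69 and 1.53, and their chaperone CD74 by 1.87. Near-identical class II genes may share probes.

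Cytokines and chemokines gave 11 higher and none lower of 18 tested (median 1.41). CXCL14 read 9.43, 5.98 and 7.10 in IC_1w, against 1.33, 3.03 and 1.88 in CM, with pig 7 well above the other cores. CXCR4, a chemokine receptor of leukocytes, read 8.24, 7.60 and 7.70 in IC_1w, against 3.11, 4.06 and 4.70 in CM (log2 FC 3.89, SE 0.38, adjusted p = 1.94e-07), and its ligand CXCL12 rose by 2.26. CCL5, a chemokine of T cells, rose by 2.86, CXCL16 by 2.28 and CXCL9, induced by interferon gamma, by 2.19. Genes that interferon induces were less uniform, with 7 of 18 higher and 11 not called. IRF8, a transcription factor of myeloid cells, rose by 3.09, the antiviral MX1 by 2.44, GBP1 by 1.63 and STAT2 by 1.46. OAS1 was not called, at 1.60, 4.79 and 4.30 in IC_1w, against 4.36, 3.99 and 5.31 in CM.

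Of 15 TGF-beta and BMP signalling genes 7 were higher, 1 lower and 7 not called (median 0.38). TGFB3 read 7.29, 7.99 and 7.12 in IC_1w, against 3.78, 2.65 and 3.32 in CM (log2 FC 4.22, SE 0.34, adjusted p = 3.38e-08), TGFB2 rose by 1.58, and TGFBR1, the kinase receptor that answers to them, by 2.30. The target gene ID3 rose by 1.92. BMPR1B, a receptor for bone morphogenetic proteins, read 2.99, 2.94 and 3.33 in IC_1w, against 5.41, 5.57 and 5.61 in CM (log2 FC -2.44, SE 0.24), and its RM_1w arrays were as low, at 2.63 to 2.96. Of 9 Wnt genes 4 were higher, among them the secreted modulators SFRP1 and DKK3 (by 2.84) and the receptor FZD2 (by 1.12), and FZD5 was lower by 1.23. In the list of wall stress and fetal programme genes 3 of 11 were higher, 4 lower and 4 not called (median 0.18). Besides NPPB these included the angiotensin precursor AGT, lower by 3.14, the angiotensin receptor AGTR1, lower by 1.21, and the endothelin receptor EDNRA, lower by 1.95.

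Most genes for protein folding and export were higher. Of 25 genes for folding in the endoplasmic reticulum 19 were higher and 1 lower (median 1.09), and of 21 genes for transport between reticulum and Golgi 17 were higher and 1 lower (median 0.93). SEC61B and SEC61A1 of the translocation channel rose by 2.39 and 2.11, CRELD2 by 2.33 and CREB3L2, a transcription factor for collagen secretion, by 1.86. DDIT3 (CHOP), a stress factor that promotes cell death, fell by 1.13, at 4.43, 4.55 and 4.49 in IC_1w, against 6.43, 5.01 and 5.43 in CM. KDELR3, which returns escaped proteins to the reticulum, read 8.34, 8.47 and 8.09 in IC_1w, against 4.57, 4.43 and 5.32 in CM (log2 FC 3.53, SE 0.28), and TMED3, a cargo receptor, rose by 3.37. SAR1B of the vesicle coat fell by 0.49, while SEC23A and SEC24D of the same coat rose by 1.70 and 1.53. Actin and adhesion genes were higher in 13 of 24 cases and lower in 3, led by CAPG (by 3.78), ARPC1B (by 3.10) and ACTN1 (by 2.97). EZR, ITGA5 and SDC4 were the 3 that fell, by 0.81, 0.80 and 0.66. In coagulation and fibrinolysis 8 of 12 were higher and none lower, with SERPINE2 at 3.50, SERPINF1 at 2.54, ANXA2 at 2.47 and urokinase (PLAU) at 2.30. In the cytosolic translation list 8 of 20 were higher, 1 lower and 11 not called (median 0.14).

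The stress lists had members in both directions. For iron, heme and oxidative stress 7 of 22 were higher and 9 lower. HMOX1, which breaks down heme, read 5.65, 6.65 and 6.65 in IC_1w, against 3.74, 3.91 and 3.70 in CM (log2 FC 2.53, SE 0.31), and the ferritin chain FTL rose by 1.27, with a second probe set not called (log2 FC 0.22). The mitochondrial antioxidants SOD2 and PRDX3 fell by 1.44 and 1.24, and GPX3 by 1.61. In the hypoxia list 5 of 13 were higher and 5 lower, with ENO1, LDHA, LOX and BNIP3L (by 1.52, and -0.22, not called, at a second probe set) among the rises and VEGFA, EGLN1 (by 1.28) and EPAS1 (by 1.14) among the falls. In the apoptosis list 10 of 17 were higher and 6 lower. CASP1, the inflammatory caspase, read 6.52, 6.91 and 6.56 in IC_1w, against 2.78, 3.34 and 3.35 in CM (log2 FC 3.51, SE 0.29), and BAX, which opens the outer mitochondrial membrane, rose by 1.71. ENDOG and AIFM1, proteins that reside in mitochondria until released, fell by 1.72 and 1.57, and the survival factor BCL2L1 by 1.48.

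Of 14 cell cycle genes tested 6 were higher, 1 lower and 7 not called (median 0.61), and of 13 DNA replication genes 7 were higher, 2 lower and 4 not called (median 0.52). TOP2A, which untangles DNA for mitosis, read 6.45, 5.62 and 6.41 in IC_1w, against 2.28, 2.32 and 2.96 in CM (log2 FC 3.64, SE 0.48, adjusted p = 5.37e-06). UBE2C rose by 2.77, CKS2 by 1.98 and MAD2L1 by 1.09, and the cell cycle inhibitor CDKN1B was the one that fell (by 0.61). Among replication genes PCNA, the sliding clamp, rose by 1.57 and FEN1 by 1.43, while POLD2 and RFC3 fell by 0.67 and 0.51. In TOP2A, UBE2C, CKS2, PCNA and FEN1 pig 8 was the lowest of the 3 cores.

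The filter on low values removed 153 genes of the 44 lists, mostly genes near background in healthy heart, and among them were nearly all lymphocyte and many proliferation genes. They were examined without the filter, a choice made after the data were seen, with p adjusted over all 24123 probe sets; 36.9% of all probe sets were then called, and 9.55% of the removed ones were higher and 11.7% lower in IC_1w. Of the 153 genes 45 were higher, 19 lower and 89 not called. Higher were 9 of 14 lymphocyte genes, 9 of 11 cell cycle genes, 8 of 9 DNA replication genes and 3 of 3 matrix glycoproteins, and none of these 4 groups had a lower member. They were picked after their counts were seen, and other removed groups did not rise. No gene was higher among 7 matrix proteases, 6 TGF-beta and BMP genes, 6 neutrophil and mast cell genes (2 lower) or 6 apoptosis genes (2 lower). Of 5 removed macrophage genes 1 was higher and 1 lower. CD3E, part of the T cell receptor complex, read 4.60, 4.16 and 4.62 in IC_1w, against 2.23, 2.56 and 2.42 in CM (log2 FC 2.06, adjusted p = 1.81e-05). CD8A of cytotoxic T cells read 5.95, 4.28 and 5.24 in IC_1w, against 2.05, 2.16 and 2.62 in CM (log2 FC 2.88). LCK, a T cell kinase, rose by 2.92 and CD2 by 1.70. These 4 genes were chosen after their values were seen and lay above 3 in every core; other T cell genes were dimmer, with CD3D at 2.96 and CD8B at 2.99 in pig 8, and CD4 at 1.08 to 1.27 in IC_1w was not called.

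Among the removed proliferation genes, CCNB1, the mitotic cyclin, read 5.96, 4.58 and 5.67 in IC_1w, against 1.93, 1.91 and 2.22 in CM (log2 FC 3.38). RRM2, which makes nucleotides for DNA, rose by 3.16, CENPF by 2.51, BIRC5 (survivin) by 2.41 and MCM2, a replication helicase subunit, by 1.81. TNC (tenascin-C), a matrix protein of embryonic and healing tissue, read 7.31, 6.59 and 5.56 in IC_1w, against 1.65, 1.79 and 1.96 in CM (log2 FC 4.69, adjusted p = 8.36e-07). IL18 rose by 3.24, SLC11A1 by 2.96, CCR1 by 2.63 and IL10 by 2.07. S100A8, a defining protein of neutrophils, stayed under 3 on all these arrays, at 0.89, 0.83 and 1.08 in IC_1w, against 2.86, 1.31 and 1.50 in CM. Of all 11943 removed probe sets, list genes included, 26 lay above 5 in all 3 cores and under 3 in all 3 controls, 11 of them with a platform symbol. They were picked by these values, which fixed the separation of the groups in advance. Their log2 FC ran from 2.61 to 8.84, and the largest, at a probe set without a name, exceeded that of LYZ. PCLAF, a partner of PCNA in DNA synthesis, read 6.52, 6.14 and 6.83 in IC_1w, against 1.16, 0.85 and 1.88 in CM. TLR4, the receptor for bacterial lipopolysaccharide, ACP5, an acid phosphatase of osteoclasts and macrophages, and JAK3, a kinase of lymphocyte cytokine receptors, were among the others.

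**Figure D3:**
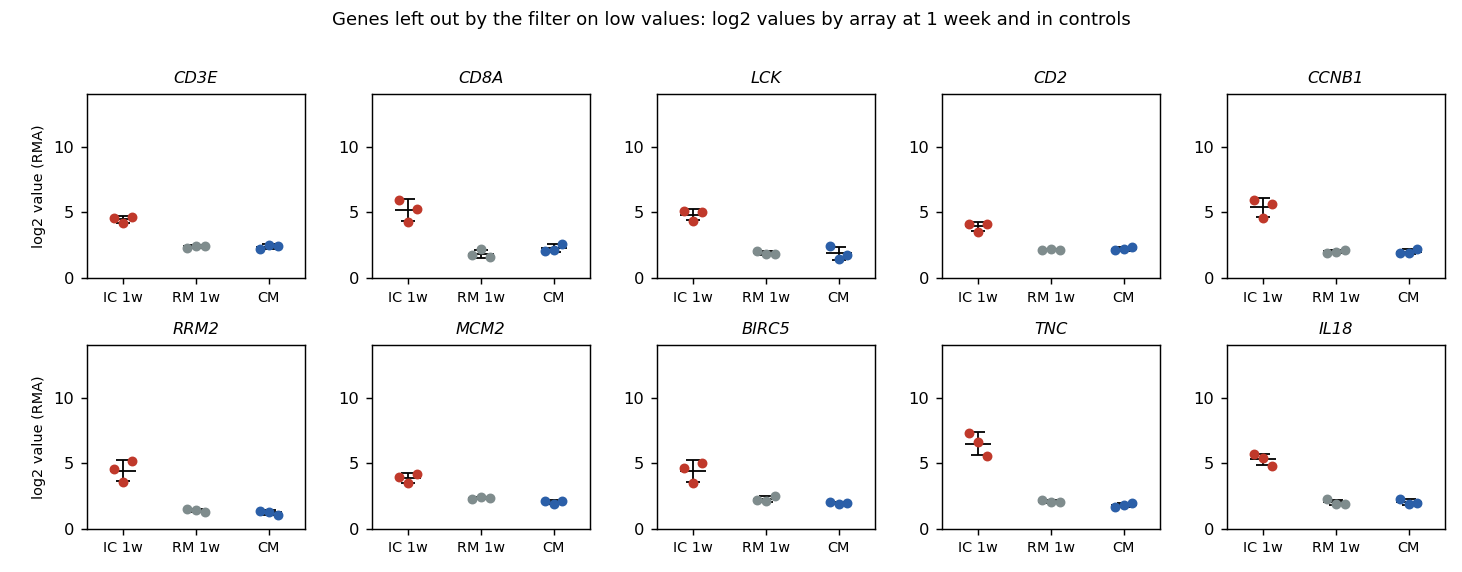
Deposited log2 values of 10 list genes that the filter on low values left out, in IC_1w, RM_1w and CM; points are arrays (3 a group), with the mean and ± 1 SD. All 10 lie under 3 in RM_1w and CM and above 3 in IC_1w, as for CD3E, at 4.16 to 4.62 in IC_1w and 2.23 to 2.56 in CM.

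The later scar showed which of these levels belonged to the first week. IC_1w differed from IC_4w in 1452 probe sets (11.9%; 773 or 6.35% higher and 679 or 5.57% lower in IC_1w) and from IC_6w in 1917 (15.7%; 1108 or 9.1% higher and 809 or 6.64% lower). Of the 6598 probe sets called against CM, 4828 were called in neither. Of the 3163 probe sets higher than CM, 340 stood above both later stages and 50 below both. Of the 3435 lower than CM, 133 stood below both and 8 above both. The same 3 IC_1w arrays enter all these contrasts, so choosing probe sets by their difference from CM favours later differences in the same direction. CXCR4 was 2.78 above IC_4w (adjusted p = 0.000378) and 3.46 above IC_6w (adjusted p = 9.67e-05), with later arrays at 4.90 to 5.22 and 4.11 to 4.82. LCP1, an actin bundler of leukocytes, read 7.22, 7.47 and 7.52 in IC_1w, 4.89 to 5.72 in IC_4w and 4.38 to 5.49 in IC_6w (differences 2.03 and 2.61). CCL5 was higher by 2.15 and 2.50, IRF8 by 1.30 and 1.98, TYROBP by 1.37 and 1.66, and CORO1A, a leukocyte coronin, by 1.72 and 2.27. These 6 leukocyte genes were higher in the first of the 3 core stages than in either later one.

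Of 14 cell cycle genes 5 were higher in IC_1w than in IC_4w and 4 than in IC_6w, and of 13 DNA replication genes 3 and 2, with none lower and the rest not called. TOP2A was higher in IC_1w by 1.95 than in IC_4w and by 1.79 than in IC_6w, PCNA by 1.03 and 1.06, FEN1 by 1.18 and 1.19, and LMNB1 by 1.76 and 2.03. Of the removed probe sets 2.52% were called higher and 2.38% lower against IC_4w, and 7.37% differed from IC_6w (4% higher, 3.37% lower), without the filter. Among these genes CENPF was higher by 1.87 and 1.81, RRM2 by 2.36 and 1.59, CD3E by 1.61 and 1.41, and SLC11A1 by 2.22 and 2.72. By list, 8 of 17 macrophage genes were higher in IC_1w than in IC_6w and 4 of 17 than in IC_4w, against 10.5% and 7.23% of all genes, of which 4.48% and 3.86% were lower. Lysosome genes gave 12 and 4 of 21, vesicle transport 10 and 4 of 21, and actin and adhesion 11 and 6 of 24, in the same order. FOLR2, a folate receptor of resident macrophages, ran the other way, 1.67 below IC_4w and 1.35 below IC_6w, as did LYVE1, 1.89 below IC_6w. LYZ, the largest rise among the tested probe sets, was 4.20 above IC_6w (adjusted p = 0.00327). Its difference of 1.94 from IC_4w was not called (adjusted p = 0.131).

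**Figure D4:**
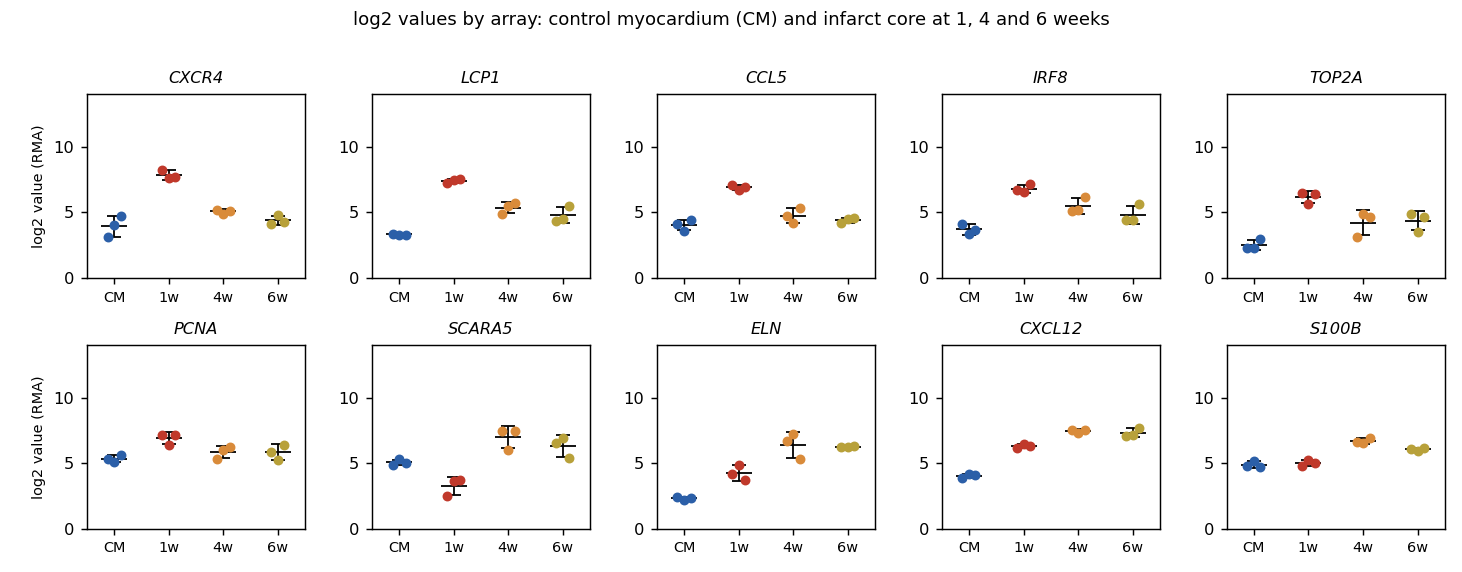
Deposited log2 values of 10 genes in CM and in infarct cores at 1, 4 and 6 weeks; points are arrays (3 a group), with the mean and ± 1 SD. CXCR4, LCP1, CCL5, IRF8, TOP2A and PCNA have their highest mean at 1 week, where SCARA5 (2.49 to 3.69) has its lowest and ELN, CXCL12 and S100B lie under both later stages.

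Other genes had yet to reach their scar level at 1 week. ELN, elastin by the authors' match, read 4.14, 4.88 and 3.69 in IC_1w, 5.32 to 7.22 in IC_4w and 6.22 to 6.29 in IC_6w, against 2.23 to 2.39 in CM (differences from the later stages -2.16 and -2.01). CXCL12 was lower than in the later scar by 1.15 and 1.02, and FAP by 1.06 and 0.76. SCARA5, a ferritin receptor, read 2.49, 3.63 and 3.69 in IC_1w, 6.01 to 7.49 in IC_4w and 5.37 to 6.93 in IC_6w, against 4.88 to 5.28 in CM; it was lower at 1 week than in any other of these groups (differences -3.72 and -3.02 from the later scar, -1.79 from CM). IGFBP5, a binder of insulin-like growth factors, was also lower at 1 week than in the later scar (differences -2.36 and -1.97) and than in CM (-2.37), with later means of 5.30 in IC_4w and 4.90 in IC_6w, against 5.30 in CM. The Schwann cell protein S100B, near its CM level at 1 week, was higher in the later scar by 1.66 and 1.04. NOV (by 2.04 and 1.35) and ABI3BP (by 1.94 and 1.78), matrix-associated proteins by the authors' match, were also higher there.

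For muscle genes the later scar gave a mixed picture. MYOM2 was lower at 1 week than in IC_4w (by 1.00) and IC_6w (by 2.13). Its list as a whole differed: of 14 sarcomere genes 3 were higher and 1 lower in IC_1w than in IC_4w (median 0.294). Against IC_6w none was higher and 2 were lower (median -0.404). None of the 20 fatty acid oxidation genes differed from IC_4w, and 4 were lower in IC_1w than in IC_6w. Citric acid cycle genes gave 4 of 20 higher than IC_4w and 3 of 20 lower than IC_6w, and the respiratory chain 5 and 3 of 31. Array medians of the citric acid cycle list, taken as differences from the CM mean, were -1.31 to -1.11 in IC_1w, -1.97 to -1.40 in IC_4w and -1.18 to -0.73 in IC_6w, so that IC_4w was the lowest stage.

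Setting the core against the septum of the same pigs, with the pig as a block, gave 6407 called probe sets (52.6%; 3013 or 24.7% higher and 3394 or 27.9% lower in IC_1w; 55.1% of genes). RM_1w against CM gave 138 (1.13%; 62 or 0.509% higher and 76 or 0.624% lower; among genes 0.462% and 0.583%). Both of these and IC_1w against CM share arrays, so their values are given side by side only. LYZ was 7.07 higher in IC_1w than in RM_1w, PTN 6.51, CILP 5.88, C1QTNF3 5.84 and FMOD 5.13, and the probe set matched to BASP1, a membrane protein of growing cell processes, 5.03. AGT was 3.49 lower, MYOM2 3.24, ASB11 3.17, SLC41A1 3.13 and ADHFE1 3.09, each with the same sign in all 3 pigs. Fatty acid oxidation was lower in 19 of 20 genes, the citric acid cycle in 20 of 20 and the respiratory chain in 30 of 31, against 29.4% of all genes, and fibroblast markers were higher in 11 of 11, against 25.7%. In RM_1w against CM these metabolic lists had no called gene. A few members of other lists were called in that contrast: CDH11 was higher by 0.96 and BAD by 0.59, while BMPR1B was lower by 2.69, A2M by 1.63, the endothelial transcription factor ERG by 1.05 and NOTCH4 by 0.89. NPPB was uneven in the septum, at 8.06, 9.26 and 3.92 in RM_1w, and was not called between IC_1w and RM_1w (log2 FC 3.07, adjusted p = 0.093). KRT8 was not called there either (0.61).

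Some technical readings moved with the groups. The median of 27 control probe sets for added bacterial RNA was 6.80, 7.65 and 6.90 in IC_1w, against 7.78, 7.72 and 7.53 in CM. Centring every array on them, an alternative chosen after the data were seen, raised the median log2 FC of all probe sets by 0.56, to 0.50, and left 4291 called, 3723 higher and 568 lower. Under it fatty acid oxidation kept a median of -0.84 with 7 of 20 lower, the citric acid cycle -0.62 with 2 of 20, the respiratory chain -0.43 with 4 of 31, calcium cycling -0.54 with 3 of 9 and the sarcomere -0.03 with 2 of 14, and the medians of glycolysis (0.0038), endothelial markers (0.23) and angiogenesis (0.30) turned positive. Median centring gave 2763 higher and 3933 lower, and cyclic loess 3541 higher and 3085 lower. The IC_1w array of pig 8, whose control probe sets read like those of CM, had list medians of -1.61 for fatty acid oxidation and 2.70 for macrophage genes relative to the CM mean, the lowest and the highest of the 3 cores. The 3′ probe set of GAPDH exceeded the 5′ one by 1.30 in IC_1w (1.16 to 1.39) and by 0.09 in CM (0.0271 to 0.207), whereas a second GAPDH design gave 0.493 in IC_1w and 0.666 in CM, the other way round. For the beta actin control these gaps were 3.96 in IC_1w and 3.67 in CM, and for the elongation factor control 1.96 in IC_1w and 2.20 in CM. The part of these readings in the results was not tested.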

How the data were processed

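RNA of 21 pig heart samples had been labelled by the 3′ IVT Express protocol and hybridised, 1 sample an array, to the Porcine Genome Array. The deposited log2 values were made by the authors with RMA, which corrects background, normalizes quantiles over the arrays and summarises each probe set; versions are not given in the sources used here. Quantile normalization gives every array the same distribution of probe intensities before they are summarised, so a shift of all genes would mostly be hidden. Array medians of the deposited values still differed slightly, at 3.046 to 3.058 in IC_1w and 2.962 to 2.97 in CM.

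The values were used as deposited. Probe sets above 3 in at least 10 of 21 arrays were kept (12180 of 24123). A limma 3.58.1 model (R 4.3.3) of 7 group means over all arrays gave the contrasts of IC_1w with CM, IC_4w and IC_6w and of RM_1w with CM, and a model with the pig as a block gave IC_1w against RM_1w. Reported p are moderated, 2-sided and adjusted by Benjamini-Hochberg over all tested probe sets, with a threshold of 0.05; an exact permutation test of 3 against 3 cannot reach it. Core and septum of an infarcted pig come from the same animal; the correlation of their deviations from the group means was 0.0714 to 0.491 over 9 pigs, and was 0.0714, 0.328 and 0.367 for pigs 7, 8 and 9. Precision is limited by 3 arrays a group. In simulated data of 12180 probe sets, only 100 were changed by 1 and 100 by 2 on the log2 scale. The contrast of IC_1w with CM recovered 68 and 96 of them, and called 8 unchanged ones. Far fewer probe sets changed there than were called in the real contrast, and the adjusted p depends on that share. These rates therefore do not give the recovery in the real data.

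Gene names came from the platform annotation (6257 tested probe sets with 1 symbol, 133 with several, 5790 with none), and otherwise from the authors' match to human genes (1055). Each of 44 lists used, per gene, the probe set with the highest mean over all arrays; of 166 other probe sets of list genes 106 gave the same call, 45 were called at 1 of the 2 only and 15 went the opposite way. Named genes were the 15 largest rises and falls without overlap between groups, up to 6 members a list with the largest changes and any opposing one, the 10 largest differences each way from IC_4w, IC_6w and RM_1w, and control probe sets; others are said to be chosen after their values were seen. Removed genes were named after their values were seen. The comparison, its members and the lists were chosen with earlier results of these data known. Alternatives varied the filter, threshold, scaling, weights, trend, samples and blocking. Of the authors' own comparison tables only the gene symbols were used, for the match to human genes, and none of their values. Those tables list probe sets that the study found differentially expressed, so the match could name no others. No sequences were used here.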

Additional observations from a re-analysis of the deposited data

Results flagged for a closer look

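Some genes outside the tested set were called too. Of the 153 list genes that the filter on low values removed, 45 were called higher in IC_1w than in CM, 19 lower and 89 not called once the filter was dropped, beside 9.55% higher and 11.7% lower over all removed probe sets. Of the 11943 removed probe sets, 26 lay above 5 in all 3 IC_1w arrays and below 3 in all 3 CM arrays. These 26 were picked by those values, so their separation is no test.

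Of the probe sets that differed between IC_1w and IC_4w (1452, 11.9%) or IC_6w (1917, 15.7%), those of 3 genes are singled out here. Their differences are the limma contrasts already given above, so they add no further test. CXCR4 was higher in IC_1w than in IC_4w by 2.78 and than in IC_6w by 3.46, and LCP1 by 2.03 and 2.61. For SCARA5 the difference was -3.72 from IC_4w and -3.02 from IC_6w, with IC_1w below CM and both later stages above it.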

How the results depend on the processing

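Requiring a log2 FC of at least 1 gave 3029 probe sets for IC_1w against CM, 427 against IC_4w, 561 against IC_6w, 2687 against RM_1w of the same pigs and 74 for RM_1w against CM. An adjusted p under 0.01 gave 440 against IC_4w, 669 against IC_6w and 14 for RM_1w against CM, array weights gave 3509, 3109 and 557 in that order, and fits on the arrays of both groups alone gave 424, 958 and 18. For IC_1w against CM, centring on control probe sets gave 4291 (KCNH2 then 0.0074, reversed in sign), and, apart from it and the log2 FC minimum, no alternative moved the count by over 1.5 times. Leaving out 1 pig, core and septum arrays together, gave 4777 to 5883 for IC_1w against RM_1w. Leaving out 1 array gave 5710 to 6074 for IC_1w against CM, 538 to 1481 against IC_4w, 968 to 2055 against IC_6w, 20 to 101 for RM_1w against CM and 378 to 391 list genes of 405. The lower counts came without IC_1w pig 9 (538 and 968), IC_1w pig 7 (875 and 1115), IC_4w pig 18 (722) or IC_6w pig 3 (979), and for RM_1w against CM without CM pigs 31 (20) or 30 (70) or RM_1w pigs 9 (51), 7 (53) or 8 (61); the cause was not tested. With the pig as a random replicate block the counts were 6595 against CM, 1467 against IC_4w, 1936 against IC_6w and 147 for RM_1w against CM, and without the block the pairing of IC_1w with RM_1w gave 6098 in place of 6407. Among 273 named probe sets and 15 alternatives, 3983 of 4073 values kept their side of the threshold, 71 lost the call, 36 of them on control probe sets, 18 gained it and 1 reversed. Any value that changed sign without a call in either fit was counted among the 3983. Calls lost without 1 array were those of CDH5, ENG, IFIT3, LRP6, MYL4, NFKBIA, LIPE and LMO4 (without CM pig 31), IRF7 and a second PDK4 probe set (without IC_1w pig 8) and SELENBP1 (without IC_1w pig 7). Levels near 3 were close to background and limit what can be said of dim genes.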
